A study of Mus musculus with 4 samples.

Results

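The Polycomb core was described here as 10 genes, *Ezh1*, *Ezh2*, *Eed* and *Suz12* of Polycomb repressive complex 2 (PRC2), *Rnf2*, *Ring1*, *Bmi1*, *Pcgf2* and *Cbx2* of Polycomb repressive complex 1 (PRC1), and the germline PRC1 partner *Scml2*, taken by gene name from tables that listed 24411 genes. All 10 had a mean of at least 1 TPM (a transcript level scaled for transcript length and library total) and so were among the 14512 genes tested. The libraries came from male germ cells sorted at postnatal day 18 from testes of mice with a knock-in at *Rec8* (Rec8-3xFLAG-HA-p2A-GFP), on a strain labelled as mixed C57BL/6 and CBA. Both groups carried the knock-in and were sorted for GFP, a sort meant to enrich for meiotic prophase. The control was heterozygous, *Zfp541*+/- (n = 2), and not wild type, and the other group was labelled *Zfp541* KO (n = 2), each library being from 1 testis. In the control group 1 testis was heterozygous and 1 homozygous for the knock-in, without a label to tell which library was which, while both KO testes were homozygous, so knock-in dose is partly confounded with genotype. The study established several KO lines and used a single line for most experiments, and the labels do not name the line of these testes.

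Polycomb complexes keep genes silent through histone marks. PRC2 methylates histone H3 at lysine 27 through the methyltransferases EZH1 or EZH2, which need EED, the subunit that binds the finished mark, and SUZ12, the scaffold. PRC1 attaches ubiquitin to histone H2A through the ligases RING1 or RNF2, each paired with a PCGF protein such as BMI1 or PCGF2, and in its canonical form carries a CBX protein such as CBX2 that reads the PRC2 mark. In the male germ line PRC1 with SCML2 helps silence somatic genes as germ cells move through meiosis.

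*Zfp541* itself had levels of 112 and 72.2 TPM in control libraries against 136 and 151 TPM where the label reads *Zfp541* KO, a log2 difference of 0.67 (SE 0.28, limma adjusted p = 0.371). The level was thus not lower in KO, although the study's deletion began in the first exon and left only the last ones. A level for the whole gene does not show which exons carried reads, so it does not check the label. The reason for this level was not tested. *Rec8*, the meiotic cohesin gene that carries the GFP, measured 7.05 and 27.9 TPM in controls against 27.7 and 19.4 TPM in KO. The summed markers of leptotene and zygotene spermatocytes were at 3830 and 6783 TPM in controls against 7942 and 7938 TPM in KO. Of these markers 10 of 12 were higher in both KO libraries, among them *Sycp3* at 1108 and 1263 against 2093 and 2196 TPM. *Tex101* overlapped, as did *Spo11* at 95.1 and 66.9 against 64.2 and 79.6 TPM. Of all genes tested, 38.6% were higher in both KO libraries and 12.1% lower in both. The summed pachytene markers were at 6715 and 3239 against 2382 and 3273 TPM, with 6 of 12 lower in both KO libraries, *Ldhc* at 3659 and 1819 against 768 and 1230 TPM, while *Hspa2* overlapped and 1 of 12 was higher. The controls stood far apart in somatic markers: the Leydig sum was 2910 and 18.0 TPM (*Insl3* 1925 and 4.99, *Hsd3b1* 425 and 4.77), with KO at 331 and 504, and the macrophage sum was 2083 and 21.8 TPM (*Lyz2* 1152 and 11.0, *C1qa* 477 and 6.39), with KO at 1696 and 1260. Spermatogonial markers summed to 462 and 1081 against 812 and 643 TPM, and Sertoli markers to 1541 and 2317 against 2549 and 2073. Myoid markers summed to 12.3 and 18.7 against 24.7 and 18.5, and endothelial and blood markers to 80.3 and 21.6 against 34.7 and 40.8. Spermatid markers summed to 26.2 and 17.4 against 32.7 and 34.6, with 7 of 10 at 0 in some library. Of the 4 spermatid markers tested, 2 were higher in both KO libraries and 0 lower, with a median difference of -0.17. The part of these differences in the Polycomb values was not tested.

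**Figure D1:**
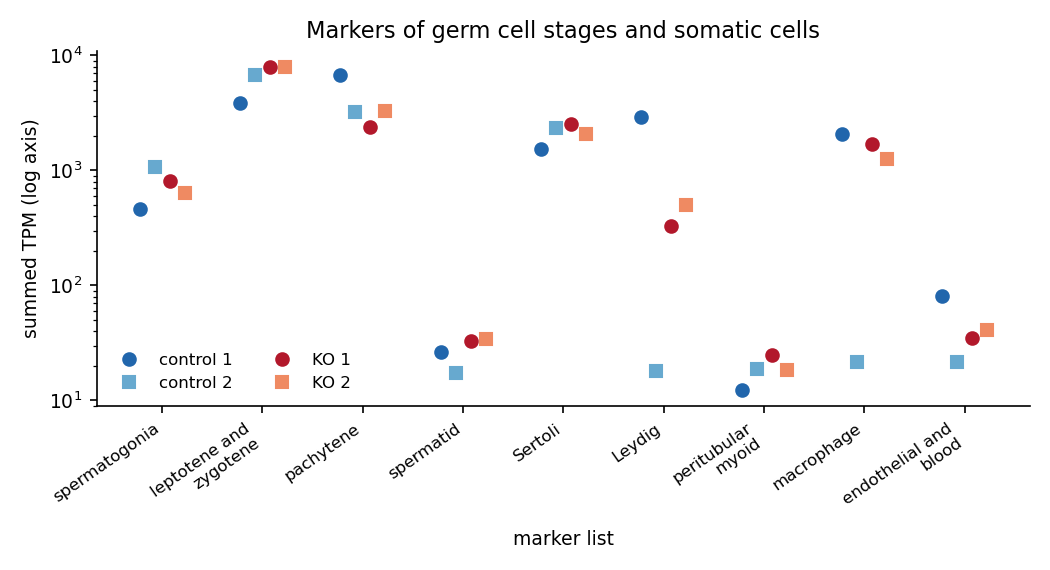
Summed TPM (log axis) of each marker list in the 4 libraries, 1 point per library. The leptotene and zygotene sums of both KO libraries (7942 and 7938) lie above both controls, as do their low spermatid sums (32.7 and 34.6). Control 2 lies far below the other libraries for Leydig (18.0) and macrophage (21.8) markers.

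Every one of the 10 members had a higher mean in the libraries labelled KO, and 8 of 10 were higher in both KO libraries than in both controls, all but *Cbx2* and *Scml2*. None passed the limma test, whose adjusted p-values ran from 0.310 for *Suz12* and *Bmi1* to 0.852 for *Cbx2*, and 0 of all 14512 genes passed (0%), the smallest adjusted p being 0.310. At an unadjusted p under 0.05 there were 1549 higher and 542 lower genes. Both KO libraries lay above both controls for 38.6% of all genes tested and below for 12.1%, and the median difference over all genes was 0.28 (quartiles -0.11 and 0.65), with 69.0% of genes above zero. The members' median was 0.56 (range 0.19 to 1.47). At an unadjusted p under 0.05 lay 5 of 10 members against 10.7% of all genes in that direction, and at least 2-fold higher lay 2 of 10 against 8.98%. By a different method on these same samples, the study called genes in both directions at a false discovery rate of at most 0.05. It listed *Bmi1*, *Ezh1*, *Ezh2*, *Rnf2* and *Suz12* among the upregulated genes, as putative targets bound by ZFP541. The limma test used here made none of those calls. Because the samples are the same, the direction of those 5 is not independent evidence. In sorted bulk cells, fewer cells of a type and less RNA per cell cannot be told apart.

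**Figure D2:**
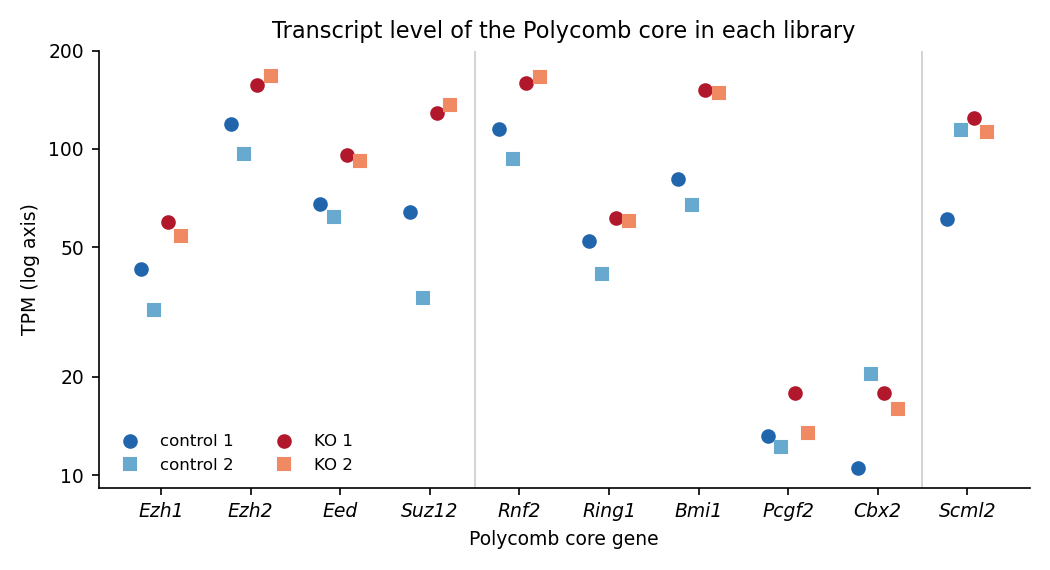
Transcript level in TPM (log axis) of the 10 Polycomb core genes, 1 point per library, with PRC2 on the left, PRC1 in the middle and *Scml2* on the right. Both KO libraries lie above both controls for every gene but *Cbx2* and *Scml2*, with the widest gap for *Suz12* (64.1 and 34.9 against 129 and 136 TPM).

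Levels between genes could be compared because TPM is scaled for length. By mean TPM over the 4 libraries the order was *Ezh2*, *Rnf2*, *Bmi1*, *Scml2*, *Suz12*, *Eed*, *Ring1*, *Ezh1*, *Cbx2* and *Pcgf2*, from 135 down to 14.2 TPM. The ranges of neighbours in this order overlapped except between *Eed* and *Ring1* and between *Ezh1* and *Cbx2*. *Cbx2* and *Pcgf2* thus stood apart as the members with low transcript levels, at 10.5 to 20.4 and 12.2 to 17.8 TPM, below all libraries of the other 8 members.

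Within PRC2, all 4 genes taken as members were higher in both KO libraries, and *Suz12* had the largest difference of any member. *Suz12* (ENSMUSG00000017548, chromosome 11, 79993106 to 80034123, plus strand, GRCm38), the scaffold on which PRC2 assembles, measured 64.1 and 34.9 TPM in controls against 129 and 136 TPM in KO. The controls lay far apart and the KO libraries close together, without overlap. The log2 difference was 1.47 (SE 0.34, 95% interval 0.55 to 2.39, limma adjusted p = 0.310), or 2.68-fold on mean TPM, and the 4 pairs of a KO and a control library gave 1.00 to 1.94. Of all genes tested 97.5% had a smaller difference.

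*Ezh2* (ENSMUSG00000029687, chromosome 6), the more active of the methyltransferases and the one associated with dividing cells, measured 119 and 96.8 TPM in controls against 157 and 167 TPM in KO. Its groups did not overlap, and its log2 difference was 0.59 (SE 0.20, 95% interval 0.052 to 1.13, limma adjusted p = 0.328). *Ezh1* (ENSMUSG00000006920, chromosome 11), the methyltransferase common in resting and differentiated cells, measured 42.9 and 32.0 TPM in controls against 59.8 and 54.0 TPM in KO. It too was higher in both KO libraries, with a difference of 0.60 (SE 0.24, 95% interval -0.055 to 1.26, limma adjusted p = 0.365). *Eed* (ENSMUSG00000030619, chromosome 7), which binds methylated lysine 27 and stimulates the enzyme, measured 68.0 and 62.0 TPM in controls against 96.0 and 92.1 TPM in KO. Its libraries were the tightest of the PRC2 genes, and its difference was 0.53 (SE 0.18, 95% interval 0.039 to 1.02, limma adjusted p = 0.331). Relative to the median of all genes, the differences were 1.18 for *Suz12*, 0.32 for *Ezh1*, 0.31 for *Ezh2* and 0.24 for *Eed*. The 4 genes summed to 294 and 226 TPM in controls against 443 and 450 TPM in KO, 1.72-fold on the means.

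The upstream sequence of *Suz12* is shown because it had the largest difference, and that of *Ezh1* as a PRC2 gene nearer to the middle of all genes, from among the 4 members whose RefSeq window ends at the GENCODE gene start. Both are 250 bases on RefSeq's GRCm38.p6, 5′ to 3′ on the gene's strand, ending at the base before the annotated start, *Suz12* at chr11:79992856-79993105 (plus strand) and *Ezh1* at chr11:101226464-101226713 (minus strand), with capitals for any match to the GC box GGGCGG, the E2F motif TTTNNCGC, the cAMP response element TGACGTCA or the E-box CACGTG on either strand.
Suz12: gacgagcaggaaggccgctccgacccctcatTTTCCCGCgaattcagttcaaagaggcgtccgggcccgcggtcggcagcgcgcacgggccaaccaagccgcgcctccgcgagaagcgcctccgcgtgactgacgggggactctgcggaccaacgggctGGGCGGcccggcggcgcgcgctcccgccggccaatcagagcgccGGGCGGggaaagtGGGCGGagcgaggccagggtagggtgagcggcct
Ezh1: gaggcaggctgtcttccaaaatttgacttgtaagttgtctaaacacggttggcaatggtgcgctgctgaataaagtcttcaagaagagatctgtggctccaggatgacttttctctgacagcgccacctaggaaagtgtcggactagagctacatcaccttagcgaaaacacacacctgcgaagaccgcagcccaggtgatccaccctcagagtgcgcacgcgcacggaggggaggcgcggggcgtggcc
The *Suz12* window held 3 GC boxes and 1 E2F motif, at 73.6% GC with 37 CpG dinucleotides, and the *Ezh1* window held none of the 4 motifs, at 55.2% GC with 14 CpG. Of all 32851 windows of the same length, 32.7% held a GC box, 4.28% an E2F motif, 1.55% a cAMP response element and 6.02% an E-box, the median GC was 52.4% (quartiles 45.2 and 61.2) and the median number of CpG was 6. All 9 members with a window lay above the median GC, from 54.4% to 73.6%, and 5 held a GC box, while *Cbx2* had no window. The windows of *Ezh2*, *Pcgf2* and *Scml2* lay inside the annotated gene and not before its start. That of *Pcgf2* is among those with a GC box. A match describes letters and not binding, and the binding data of the study were not used here.

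**Figure D3:**
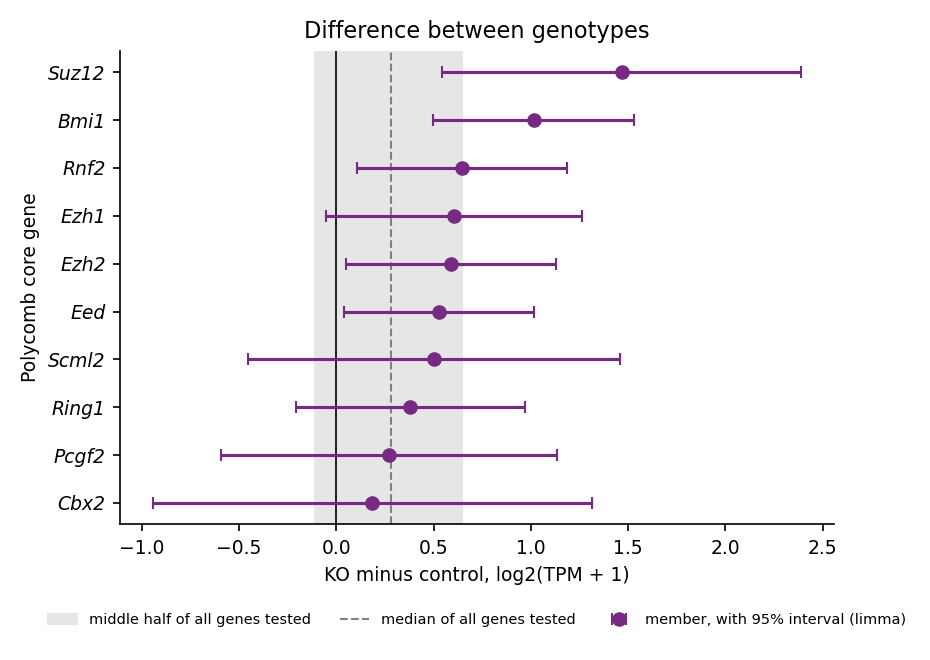
KO minus control difference on the log2(TPM + 1) scale for each member, with the 95% interval from limma, against the median (dashed, 0.28) and the interquartile range (grey, -0.11 to 0.65) of all genes tested. *Suz12* and *Bmi1* lie beyond the grey band, *Rnf2* at its edge and the other members within it.

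Within PRC1, *Bmi1* (ENSMUSG00000026739, chromosome 2, 18677018 to 18686629, plus strand, GRCm38), a PCGF subunit that activates the ligase and is known for repressing the cell cycle inhibitor locus *Cdkn2a*, measured 80.9 and 67.5 TPM in controls against 152 and 149 TPM in KO. The KO libraries lay almost on each other and well clear of both controls. The log2 difference was 1.02 (SE 0.19, 95% interval 0.50 to 1.53, limma adjusted p = 0.310), or 2.03-fold on mean TPM, and the pairs of libraries gave 0.87 to 1.16. *Rnf2* (ENSMUSG00000026484, chromosome 1), the main H2A ubiquitin ligase, measured 115 and 92.8 TPM in controls against 160 and 166 TPM in KO. Its groups did not overlap, with a difference of 0.65 (SE 0.20, 95% interval 0.11 to 1.19, limma adjusted p = 0.320). *Ring1* (ENSMUSG00000024325, chromosome 17), its paralogue, measured 52.2 and 41.3 TPM in controls against 61.3 and 60.3 TPM in KO, and its difference of 0.38 (SE 0.22, 95% interval -0.21 to 0.97, limma adjusted p = 0.469) was barely larger than the distance between its controls.

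The remaining PRC1 members were low and differed little. *Pcgf2* (ENSMUSG00000018537, chromosome 11), the PCGF paralogue nearest to *Bmi1*, measured 13.2 and 12.2 TPM in controls against 17.8 and 13.5 TPM in KO. The KO libraries lay farther apart than the groups, and the lower of them was just above control 1. Its log2 difference was 0.27 (SE 0.32, 95% interval -0.59 to 1.13, limma adjusted p = 0.711), and under median-ratio scaling it turned to -0.045. *Cbx2* (ENSMUSG00000025577, chromosome 11), the CBX subunit that binds the PRC2 mark and is known for a part in gonad development, measured 10.5 and 20.4 TPM in controls against 17.8 and 15.95 TPM in KO. Both KO libraries fell between the controls. The difference of 0.19 (SE 0.42, 95% interval -0.94 to 1.32, limma adjusted p = 0.852) turned to -0.13 under median-ratio scaling, -0.022 under quantile normalization, -0.14 with the length correction and -0.26 without control 1.

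The windows of *Bmi1*, the PRC1 gene with the largest difference, and *Ring1*, a PRC1 gene with a small one, are shown in the same way, *Bmi1* at chr2:18676768-18677017 (plus strand) and *Ring1* at chr17:34024681-34024930 (minus strand).
Bmi1: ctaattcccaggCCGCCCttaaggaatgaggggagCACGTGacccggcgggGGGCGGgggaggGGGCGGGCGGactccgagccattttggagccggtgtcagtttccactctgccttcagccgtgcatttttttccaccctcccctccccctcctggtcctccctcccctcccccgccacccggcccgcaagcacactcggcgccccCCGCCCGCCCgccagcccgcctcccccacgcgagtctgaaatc
Ring1: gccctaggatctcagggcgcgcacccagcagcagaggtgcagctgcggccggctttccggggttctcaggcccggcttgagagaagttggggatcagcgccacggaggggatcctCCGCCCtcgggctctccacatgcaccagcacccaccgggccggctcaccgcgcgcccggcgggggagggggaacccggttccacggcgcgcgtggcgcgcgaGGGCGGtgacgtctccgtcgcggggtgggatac
The *Bmi1* window held 6 GC boxes, some overlapping on the C-rich or G-rich runs, and 1 E-box, at 70.4% GC with 21 CpG. The *Ring1* window held 2 GC boxes at 73.6% GC with 30 CpG. A high GC share was thus found both beside a large difference and beside a small one.

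*Scml2* (ENSMUSG00000000037, chromosome X, 161117193 to 161258213, plus strand, GRCm38), which binds PRC1 in germ cells and is known for silencing somatic genes during spermatogenesis, measured 61.0 and 114 TPM in controls against 125 and 113 TPM in KO. Control 1 alone was low, and control 2 was level with KO 2. The difference was 0.50 (SE 0.35, 95% interval -0.45 to 1.46, limma adjusted p = 0.543), and it was 0.053 without control 1 and 0.95 without control 2. *Scml2* is the only member on the X chromosome, where the median difference of 548 genes was 0.28, as on the autosomes (0.28, 13347 genes). Both KO libraries lay above both controls for 28.6% of these X-linked genes and 38.9% of the autosomal ones.

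Paralogues were compared within each library, which removes a factor common to all its genes but not one that varies with transcript length. The TPM ratio of *Ezh1* to *Ezh2* was 0.359 and 0.331 in the controls and 0.380 and 0.323 in KO, a log2 difference of 0.022 (exact permutation p = 1, two-sided). The KO values enclosed the controls, so the transcript balance of the methyltransferases did not differ beyond the spread of the libraries, and with the length correction the difference was -0.15. The ratio of *Rnf2* to *Ring1* was 2.21 and 2.25 in the controls and 2.60 and 2.75 in KO, a log2 difference of 0.26. Both KO ratios were higher, by more than the spread within either group (exact permutation p = 0.3333, the smallest that 2 against 2 can give). With the length correction the log2 difference was 0.10. The ratio of *Bmi1* to *Pcgf2* was 6.15 and 5.52 in the controls and 8.53 and 11.1 in KO, a log2 difference of 0.74 (exact permutation p = 0.3333). The groups did not overlap, though the KO ratios differed more from each other than the control ratios did. For ratios added after the values were seen, *Suz12* to *Eed* was 0.942 and 0.564 against 1.35 and 1.48, and *Suz12* to *Ezh2* was 0.537 and 0.361 against 0.821 and 0.815, given without a test.

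**Figure D4:**
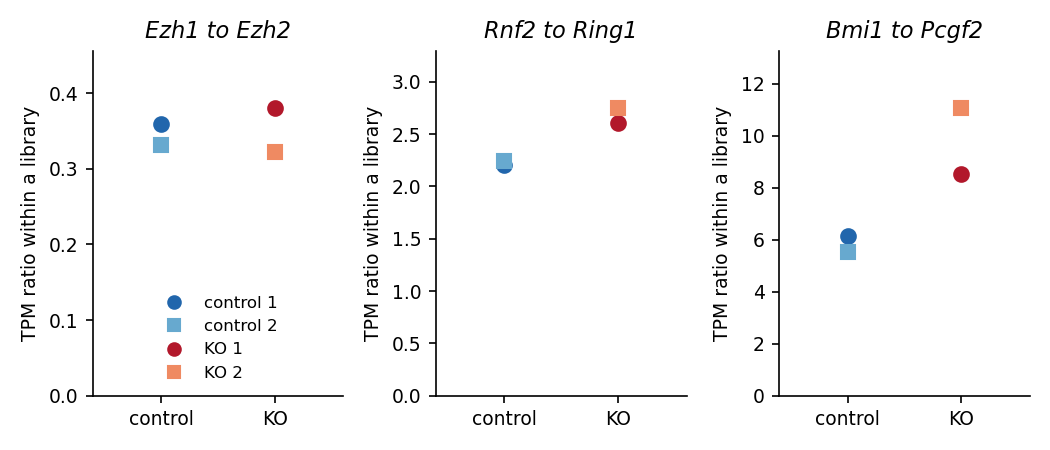
TPM ratio of paralogues within each library, each axis starting at 0, with 1 point per library. The *Ezh1* to *Ezh2* ratios of the groups overlap, while the *Rnf2* to *Ring1* (2.21 and 2.25 against 2.60 and 2.75) and *Bmi1* to *Pcgf2* ratios are higher in both KO libraries.

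Across whole families, the PCGF genes, whose choice defines which PRC1 form is made, summed to 537 and 467 TPM in controls against 723 and 774 TPM in KO. *Bmi1* was 15.1% and 14.5% of that sum in the controls and 21.0% and 19.2% in KO, and *Pcgf2* never exceeded 2.62%. *Pcgf5* was the most abundant in every library, at 36.2% and 42.3% against 43.8% and 43.3%. *Pcgf6* took 30.3% and 21.4% against 18.9% and 22.5%, below *Bmi1* in KO 1 and above it in the other libraries. *Pcgf1* was 10.9% and 14.1% against 7.73% and 7.62%, lower as a share in both KO libraries, and its level of 58.7 and 65.8 against 55.9 and 59.0 TPM overlapped. *Pcgf3* took 5.07% and 5.12% against 6.09% and 5.59%.

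The CBX readers, by contrast, were a family in which the controls differed from each other. Their sum was 96.9 and 82.9 TPM in controls against 107 and 109 TPM in KO, but *Cbx7* was 46.8% of it in control 1 and 22.2% in control 2, and *Cbx8* 7.72% and 28.8%, against 25.4% and 29.4% and 16.9% and 11.6% in KO. *Cbx2* was 10.8% and 24.6% in the controls and 16.7% and 14.7% in KO, and *Cbx6* 26.1% and 12.8% against 28.3% and 34.1%. Of these 4 genes, *Cbx6* alone had KO shares above both controls. Among the PHC subunits, which join PRC1 complexes together, *Phc1* was 64.6% and 48.5% against 66.2% and 65.4%, *Phc2* 28.0% and 48.7% against 26.0% and 27.3%, and *Phc3* 7.37% and 2.76% against 7.77% and 7.34%. Control 2 alone stood apart from the other 3 libraries.

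Of 36 other genes of the Polycomb machinery in the tables, 34 were tested, 31 of them had a positive difference and 20 were higher in both KO libraries, 58.8% against 38.6% of all genes, and 0 were lower in both, against 12.1%. Their median was 0.54 (range -0.16 to 1.13), none passed the limma threshold, 4 had an unadjusted p under 0.05 (10.7% of all genes did in the higher direction) and 2 were at least 2-fold higher (8.98% of all genes), shares near or under those of all genes. *Jarid2*, a PRC2 cofactor that helps bring the complex to chromatin and that the study had also named, measured 51.4 and 53.3 TPM in controls against 120 and 112 TPM in KO, a difference of 1.13 (SE 0.18, limma adjusted p = 0.310). Its controls nearly coincided and its KO libraries were clear of them. *Mtf2*, which directs PRC2 to CpG-rich DNA, was at 81.7 and 38.1 against 113 and 134 TPM, a difference of 1.12, with control 2 far below control 1. The PRC2 genes listed here as accessory, *Jarid2* and *Mtf2* among them, had a median of 0.35. Of these, 4 of 9 were higher in both KO libraries, against 38.6% of all genes. The common histone binders *Rbbp4* (-0.15) and *Rbbp7* (0.065) overlapped. They too belong to PRC2 but were counted in this list and not among the members.

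In the variant PRC1 group, 7 of 11 genes were higher in both KO libraries, with a median of 0.54, against 38.6% of all genes and their median of 0.28. *Pcgf5* measured 194 and 197 TPM in controls against 317 and 335 TPM in KO, a difference of 0.73 (SE 0.18, limma adjusted p = 0.310), and *Pcgf3* at 27.2 and 23.9 against 44.0 and 43.3 TPM, a difference of 0.75. Both are PCGF subunits of variant PRC1, and both were tight within groups. Of the canonical PRC1 paralogues 6 of 9 were higher in both, with a median of 0.41. Among genes for the opposing enzymes, 1 of 3 of the H2A deubiquitinase group was higher in both KO libraries (median 0.58). With so few genes that count is near the 38.6% of all genes. Both lysine 27 demethylases were higher in both KO libraries (median 0.77). *Kdm6b* measured 16.2 and 12.7 TPM in controls against 26.95 and 24.8 TPM in KO, a difference of 0.81 (SE 0.28, limma adjusted p = 0.335), and *Kdm6a* was at 10.6 and 10.8 against 22.1 and 15.6 TPM.

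**Figure D5:**
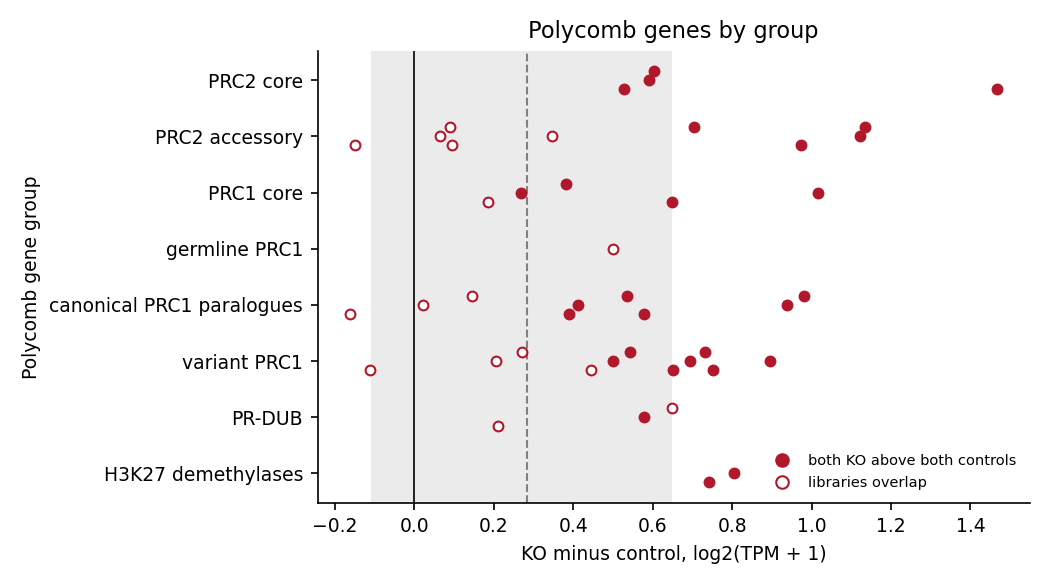
KO minus control difference on the log2(TPM + 1) scale for each Polycomb gene tested, by group, with the median (dashed, 0.28) and interquartile range (grey) of all genes tested. Filled points are genes whose KO libraries both lie above both controls, which holds for 8 of 10 members and 20 of 34 other genes.

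Genes that Polycomb is widely known to silence gave little to compare. Of 24 such genes 15 were listed under 1 TPM in all 4 libraries, and only 6 were tested, 3 of them higher in both KO libraries, with a median of 0.48. With so few genes this count is near the 38.6% of all genes. *Cdkn1c*, a cell cycle inhibitor, measured 5.66 and 9.46 TPM in controls against 19.8 and 15.7 TPM in KO, a difference of 1.16 (SE 0.40, limma adjusted p = 0.330). Both KO libraries were clear of the controls. *Cdkn2a*, the classic BMI1 target, was at 28.7 and 80.5 against 60.8 and 57.2 TPM, with both KO libraries between the controls.

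For all members but *Pcgf2* the controls lay farther apart than the KO libraries. Over the 10 members, the distance on the log2 scale ran from 0.099 to 0.90 between controls and from 0.023 to 0.38 between KO libraries. The group difference exceeded both distances for 7 of 10, a count without a baseline, as the share over all genes was not computed. With control 1 left out, the differences were 1.90 for *Suz12*, 1.14 for *Bmi1*, 0.81 for *Ezh1*, 0.80 for *Rnf2* and 0.74 for *Ezh2*. *Eed* was then at 0.59, *Ring1* at 0.55, *Pcgf2* at 0.32, *Scml2* at 0.053 and *Cbx2* at -0.26. With control 2 left out, the differences were 1.04 for *Suz12*, 0.95 for *Scml2*, 0.89 for *Bmi1*, 0.64 for *Cbx2* and 0.49 for *Rnf2*. *Eed* was then at 0.46, *Ezh2* at 0.44, *Ezh1* at 0.40, and *Ring1* and *Pcgf2* at 0.22. The median of all genes was 0.44 without control 1 and 0.15 without control 2. In those fits the remaining control is assumed to vary like the KO libraries, so their calls are not given.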

How the data were processed

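RNA was measured in 4 libraries from sorted P18 male germ cells, 2 per genotype. The deposited values are TPM per gene, which the authors made, per the labels and their methods, from single-end reads trimmed with Trim Galore 0.5.0 and cutadapt 1.16, aligned to mm10 with STAR 2.6.0a and quantified with RSEM 1.3.1. TPM keeps no record of depth, so the number of reads behind each value is unknown, no interval for counting error was given, and the interval of a difference covers only the spread between libraries. An inflated TPM of a few genes lowers that of all the others in its library.

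A gene was kept where its mean over the libraries reached 1 TPM (14512 of 24411). The test was limma 3.58.1 in R 4.3.3 on log2(TPM + 1), KO minus control, with the prior variance trended on the mean and p-values adjusted by Benjamini-Hochberg over the genes kept, and an adjusted p under 0.05 was the threshold. A fold change on the log2(TPM + 1) scale understates the change of low genes. The fit was run on simulated data in which all genes shared a common spread, unlike these libraries. That run does not show the power of the fit for the differences seen here. Ratios between paralogues were compared with an exact two-sided permutation test, which cannot give a p below 0.3333 with 2 against 2. Replicate numbers only name libraries: the deviations of same-numbered libraries from their group means had a correlation of -0.16 across genes, and no label ties the numbers to a litter or day. Another pseudocount, filter, scaling, trend setting, block or set of libraries was tried, and a correction for transcript length used the longest GENCODE basic transcript, found for 95.9% of the genes kept.

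The members and lists were chosen with earlier results of these data known. The genes named are the 10 members, *Zfp541* and *Rec8*, the Polycomb genes with an unadjusted p under 0.05 or a difference of at least 1 on the log2 scale, genes of the CBX, PCGF and PHC families (1 is not reported here), and abundant markers of lists whose sum differed more than 2-fold between any 2 libraries. Any further gene is named as a marker or to account for a count, and was chosen after its values were seen. Upstream windows of 250 bases came from RefSeq (GRCm38.p6) and loci from GENCODE on GRCm38, the assembly that mm10 names. The tables listed 27 rows under dates in place of gene names. None of them was a member.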

Additional observations from a re-analysis of the deposited data

How the results depend on the processing

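With all 4 libraries, none of the 110 member differences under 11 alternatives passed the limma threshold (lowest adjusted p 0.140). All members but *Pcgf2* and *Cbx2* stayed positive in every alternative, *Suz12* at 1.04 to 1.90, *Bmi1* at 0.68 to 1.14 and *Ring1* as low as 0.051. Median-ratio scaling moved the median of all genes from 0.28 to -0.015, the members' median from 0.56 to 0.23 and that of the other Polycomb genes from 0.54 to 0.22. Quantile normalization gave 0.37 and 0.31, and the length correction 0.34 and 0.15. Under these 3 settings 7 members, without *Pcgf2*, stayed above both controls, where 22.6% (median-ratio), 27.8% (quantile) and 24.6% (length correction) of all genes were, against 38.6% before. Differences that turned were *Pcgf2* at -0.045 (median-ratio) and *Cbx2* at -0.13 (median-ratio), -0.022 (quantile), -0.14 (length correction, with or without the block) and -0.26 (without control 1, against 0.64 without control 2). The length correction moved the *Ezh1* to *Ezh2* ratio to -0.15 and that of *Rnf2* to *Ring1* to 0.10.

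Without the filter 1 gene was called higher and 1 lower. The replicate block called 0 in either direction and, with the length correction, 19 higher and 192 lower, with medians of 0.34 for the members and 0.15 for the other Polycomb genes. The block changed no member's call. A crossed pairing, added after seeing the data because the same-number correlation was -0.16, called 7 higher and 80 lower. Leaving out each library in turn called 0 to 5610 genes higher and 0 to 1875 lower, though each such fit left 1 library in a group. The members' median was then 0.48 to 0.67 and that of the other Polycomb genes 0.40 to 0.73. Among the remaining libraries, 8 to 10 members had every KO library above every control, as did 42.9% to 65.8% of all genes. The count of 10 came without control 2, which lay above both KO libraries for *Cbx2*. The cause of the changes under the other settings was not tested. Depth is unknown, so what it limits could not be given.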
